A study of Mus musculus with 4 samples.

Results

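Solute carriers are the membrane transporters whose mouse genes bear the symbol Slc and a family number. Of the 369 annotated protein-coding genes with such a symbol, 130 had at least 1 IGF2BP2 peak in either of 2 RNA immunoprecipitation libraries from mouse bone-marrow-derived macrophages (BMDMs), and these 130 genes are described here. Genes were chosen by symbol, without Slc11a1 and Slc40a1, and by the gene identifier that the authors gave each peak, and peaks marked antisense were not counted. The presence of a peak chose the genes, so counts and tags of peaks are given as a description, with no test.

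The series holds 4 samples: 2 libraries of RNA immunoprecipitated with IGF2BP2 (IP replicates 1 and 2) and 2 input libraries, which were not analysed here. The labels give no genotype, strain, age or treatment of the macrophages, and whether the replicates are different cultures, different animals or repeats of 1 preparation is not stated. They also disagree on the antibody, which is one against IGF2BP2 in the sample characteristics and a monoclonal one against the Flag tag in the protocol. A peak is a stretch of the genome where reads (tags) of a library piled up. Tags are raw counts with no input value beside them, so a gene bound by IGF2BP2 and a gene with abundant RNA cannot be told apart, and no value below is an enrichment. RNA was taken in bulk, so many cells with little of an RNA and few cells with much of it cannot be told apart either. The replicate 1 list held 15511 peaks with 189393 tags and the replicate 2 list 22570 peaks with 324456 tags. These totals are not library sizes, and the depth of the libraries is unknown. Of 6 macrophage marker genes, Adgre1, Csf1r, Itgam and Mrc1 had peaks in both libraries, Cd68 in replicate 2, and Lyz2 in neither. Among markers of other cells, Cd3e had 1 peak of 3 tags in replicate 1, and Epcam and Col1a1 had none.

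Solute carriers move amino acids, sugars, nucleosides, metals, inorganic ions, lipids and vitamins across the plasma membrane and the membranes of mitochondria, lysosomes and the Golgi. In macrophages they bring in arginine for nitric oxide synthase and arginase, glucose for glycolysis and glutamine for the tricarboxylic acid cycle, and they empty lysosomes of the products of digested cells. IGF2BP2 is a cytoplasmic RNA-binding protein with KH domains that is known for binding mRNAs carrying N6-methyladenosine and for prolonging their life. The methylated adenosine lies in a short consensus written DRACH, where D is A, G or T, R is A or G and H is A, C or T, and GGAC is its most frequent core.

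Coding sequence that both libraries placed under a peak is shown for the 6 genes with the strongest peaks among those whose shared stretch lay wholly in the coding sequence of 1 exon, which was the case in 17 genes. The sequences are from GENCODE M21 transcripts on GRCm38, 5′ to 3′ along the mRNA, with each GGAC in capitals. Slc3a2 encodes the heavy chain of the CD98 amino acid transporters, and the stretch is exon 5 of 9 at chr19:8709550-8709608 on the minus strand, with 75 tags in replicate 1 and 25 in replicate 2. Slc6a6 encodes the taurine transporter, and the stretch is exon 7 of 15 at chr6:91739877-91740011 on the plus strand, with 28 and 65 tags. Slc25a3 encodes the mitochondrial phosphate carrier, and the stretch lies in exon 2 of 8 at chr10:91123558-91123672 on the minus strand, with 13 and 34 tags. In these exons the tags belong to the whole peak in each library, which can run past the stretch shown.
Slc3a2: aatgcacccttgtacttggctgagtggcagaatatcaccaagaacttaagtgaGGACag
Slc6a6: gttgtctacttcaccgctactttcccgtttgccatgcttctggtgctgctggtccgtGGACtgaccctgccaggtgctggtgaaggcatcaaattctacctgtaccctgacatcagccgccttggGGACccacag
Slc25a3: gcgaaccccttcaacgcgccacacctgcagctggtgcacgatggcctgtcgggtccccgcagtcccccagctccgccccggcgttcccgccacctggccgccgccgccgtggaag

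Slc7a2 encodes the cationic amino acid transporter CAT2, which takes up arginine, and its stretch is exon 6 of 12 at chr8:40905505-40905727 on the plus strand, with 13 and 26 tags. Slc37a2 encodes a sugar-phosphate exchanger of the endoplasmic reticulum, and its stretch is exon 4 of 18 at chr9:37241092-37241170 on the minus strand, with 13 and 25 tags. Slc6a8 encodes the creatine transporter, and its stretch is exon 10 of 13 at chrX:73680132-73680234 on the plus strand, with 7 and 27 tags. In all of the 6 genes but Slc25a3, the shared stretch was exactly 1 whole exon. GGAC occurred in Slc6a6, Slc3a2 and Slc37a2, and not in the stretches of Slc25a3, Slc7a2 and Slc6a8.
Slc7a2: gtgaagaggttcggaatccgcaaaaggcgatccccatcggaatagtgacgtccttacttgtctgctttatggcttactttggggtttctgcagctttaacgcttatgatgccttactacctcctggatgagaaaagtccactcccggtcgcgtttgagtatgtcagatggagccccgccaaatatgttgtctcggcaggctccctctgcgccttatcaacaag
Slc37a2: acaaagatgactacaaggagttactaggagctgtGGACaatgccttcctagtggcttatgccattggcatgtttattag
Slc6a8: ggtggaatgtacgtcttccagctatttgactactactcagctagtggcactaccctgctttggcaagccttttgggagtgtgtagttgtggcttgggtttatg

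The 130 genes were 35.2% of the annotated solute carrier genes, beside 31.8% of all protein-coding genes. Those with peaks in both libraries numbered 69, or 18.7% of the annotated genes, beside 17.1% over all protein-coding genes. Solute carrier genes thus carried peaks about as often as protein-coding genes at large. Of the 130 genes, 53.1% (exact binomial 95% interval 44.1 to 61.9) had a peak in both libraries, beside 53.8% over all protein-coding genes with a peak. In 27 genes, or 20.8% (14.2 to 28.8), a peak of 1 library overlapped a peak of the other by at least 1 base on the same strand, beside 28.6% over all protein-coding genes with a peak. These 27 genes are by definition among the 69 with peaks in both libraries, and the other 42 of the 69 had no peaks that overlapped. The intervals cover counting error over genes or peaks only, and not differences between libraries or dependence among genes or peaks. Reads without molecular identifiers are also not independent molecules.

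Replicate 1 held 190 peaks with 2013 tags in 90 solute carrier genes, of which 21 had no peak in replicate 2. Replicate 2 held 306 peaks with 3620 tags in 109 genes, of which 40 had no peak in replicate 1. These were 1.06% and 1.12% of all tags in peaks. The genes took nearly the same share of both lists. The median peak had 7 tags in replicate 1 and 8 in replicate 2, beside 8 and 9 for peaks of other protein-coding genes. Peaks of 3 to 5 tags made up 29.5% of the solute carrier peaks (23.1 to 36.5) in replicate 1, against 26.1% of those of other genes, and 24.5% (19.8 to 29.7) in replicate 2, against 17.3%. The strongest peak of a gene had a median of 6 tags in replicate 1 and 8 in replicate 2, and it had 3 to 5 tags in 35 genes of each library. A single peak was all that 54 genes had in replicate 1 and 46 in replicate 2, and 10 and 21 genes had 5 or more. The rule took any peak, and the lowest count in the lists was 3. Just inside it were Slc19a2, a thiamine transporter, Slc35a1, the CMP-sialic acid transporter of the Golgi, Slc7a3 and Slc9a2, whose strongest peak in either library had 3 tags, and 31 genes whose strongest had 4. Just outside it were 239 annotated genes with no sense peak, of which 11 had antisense peaks.

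Tags were concentrated in a small number of genes. The 10 genes with most tags held 58.4% of solute carrier tags in replicate 1 and 48.8% in replicate 2. A strongest peak of 20 or more tags was found in 7 genes in replicate 1 and 13 genes in replicate 2, and 7 genes reached it in both. Tags per peak are not scaled for length, so where genes are compared the summed tags of a gene are also given per kilobase (kb) of its mRNA. Since intronic peaks were included in the sum, this is a density of tags and not an expression level.

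Genes for transporters of amino acids and peptides held more tags than any other class in both libraries. Of the 70 annotated genes of this class, 23 had a peak, or 32.9%, beside 31.8% of all protein-coding genes. Of these 23 genes, 19 had peaks in both libraries and 10 had a shared position. They had 1111 tags in replicate 1, or 55.2% of solute carrier tags, and 1766 tags in replicate 2, or 48.8%. Much of this came from Slc6a6, with 299 and 526 tags, and Slc3a2, with 241 and 211. Within the class, families 6 and 38 differed in how many genes were found. Family 6, the sodium- and chloride-dependent carriers of neurotransmitters and amino acids, had peaks in 2 of 21 genes, the taurine transporter Slc6a6 and the creatine transporter Slc6a8. Family 38, the sodium-coupled neutral amino acid transporters, had peaks in 6 of 11, all in both libraries.

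Slc6a6 was first by rank of its strongest peak. That peak had 52 tags in replicate 1 and 90 in replicate 2, at chr6:91740757-91741379 and chr6:91740750-91741860. The gene had 10 peaks in each library, with 299 and 526 tags, or 48.3 and 85.0 tags per kb of mRNA. Replicate 2 was higher in each of these sums. Only 4 of its positions were shared, and each was higher in replicate 2, with 68, 65, 90 and 56 tags against 40, 28, 52 and 26. Away from them the libraries had strong peaks at different places of the gene. Replicate 2 had peaks of 66, 61 and 47 tags with no partner, and replicate 1 had peaks of 31, 29 and 25 tags with none. By the authors' annotation most of these peaks were intronic, 6 of 10 in replicate 1 and 8 of 10 in replicate 2, though many also crossed into exons.

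Slc3a2, the heavy chain that CD98 light chains need to reach the cell surface, had the highest solute carrier peak of replicate 1, with 75 tags, against 49 in its strongest peak of replicate 2. It had 7 peaks in each library, with 241 tags in replicate 1 and 211 in replicate 2. On its short mRNA of 1819 nt that gave 132 and 116 tags per kb, more than for Slc6a6 in both libraries. In contrast to Slc6a6, replicate 1 had the higher sum. Its peaks lay in coding sequence in 6 of 7 cases in each library, and 6 overlaps joined the libraries. The partner genes had far fewer tags. Slc7a5, the large neutral amino acid light chain LAT1, had a strongest peak of 10 tags in replicate 1 and 6 in replicate 2. Slc7a8, the light chain LAT2, had 11 and 31, with 4 shared positions. Slc7a11, the cystine-glutamate light chain xCT, had 4 and 4. Of the other light chains, Slc7a6 had a peak of 4 tags in replicate 1 only and Slc7a7 had peaks of 4 tags in replicate 2 only. Slc7a8 was thus the only light chain of the 5 that reached 20 tags, and it did so in 1 library.

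**Figure D1:**
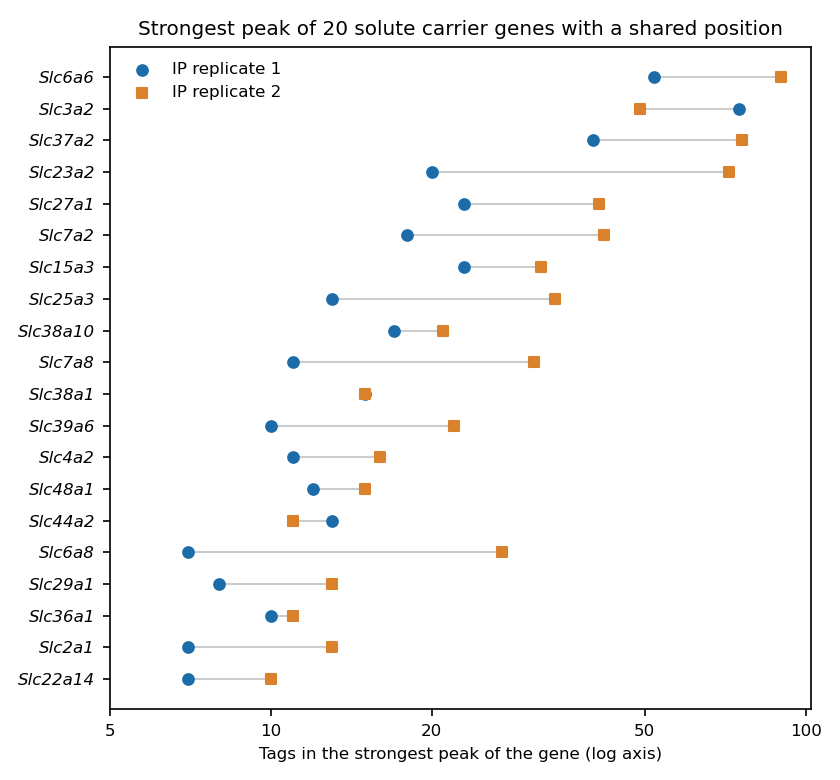
Tags in the strongest peak (horizontal log axis) of the 20 highest-ranking solute carrier genes with a shared position, with IP replicate 1 as circles, IP replicate 2 as squares and a line joining the libraries of each gene. Slc6a6 (52 and 90 tags) and Slc3a2 (75 and 49) stand at the top, and Slc3a2 and Slc44a2 (13 and 11) are the genes drawn with replicate 1 to the right of replicate 2. The joined values of a gene can belong to peaks at different places, as in Slc3a2 and Slc23a2. Slc22a14 is among the 20 by the authors' identifier, though all of its peaks lay within Oxsr1 or Myd88.

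The cationic amino acid transporter Slc7a2 had peaks of up to 18 tags in replicate 1 and 42 in replicate 2. It had 6 peaks and 75 tags in replicate 1, and 9 peaks and 195 tags in replicate 2. Its 3′ untranslated region (3′ UTR) held 4 of the peaks in replicate 1 and 5 in replicate 2, and 6 overlaps joined the libraries. Its relative Slc7a1, which encodes CAT1, differed between the libraries in kind: 2 intronic peaks of 6 and 7 tags in replicate 1, but 5 peaks in the 3′ UTR and 1 in coding sequence in replicate 2, with up to 16 tags. Slc38a1, a glutamine carrier of the plasma membrane, had many weak peaks. Its strongest had 15 tags in both libraries, with 5 peaks in replicate 1 and 13 in replicate 2, and each of the 5 had a partner. Slc38a2, which is known for induction by amino acid starvation, had 6 and 12 tags, and Slc38a9, the lysosomal arginine sensor upstream of mTORC1, had 6 and 6. Neither had a shared position. Slc38a10 had 17 and 21 tags, and its 4 peaks in replicate 1 were all in coding sequence.

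**Figure D2:**
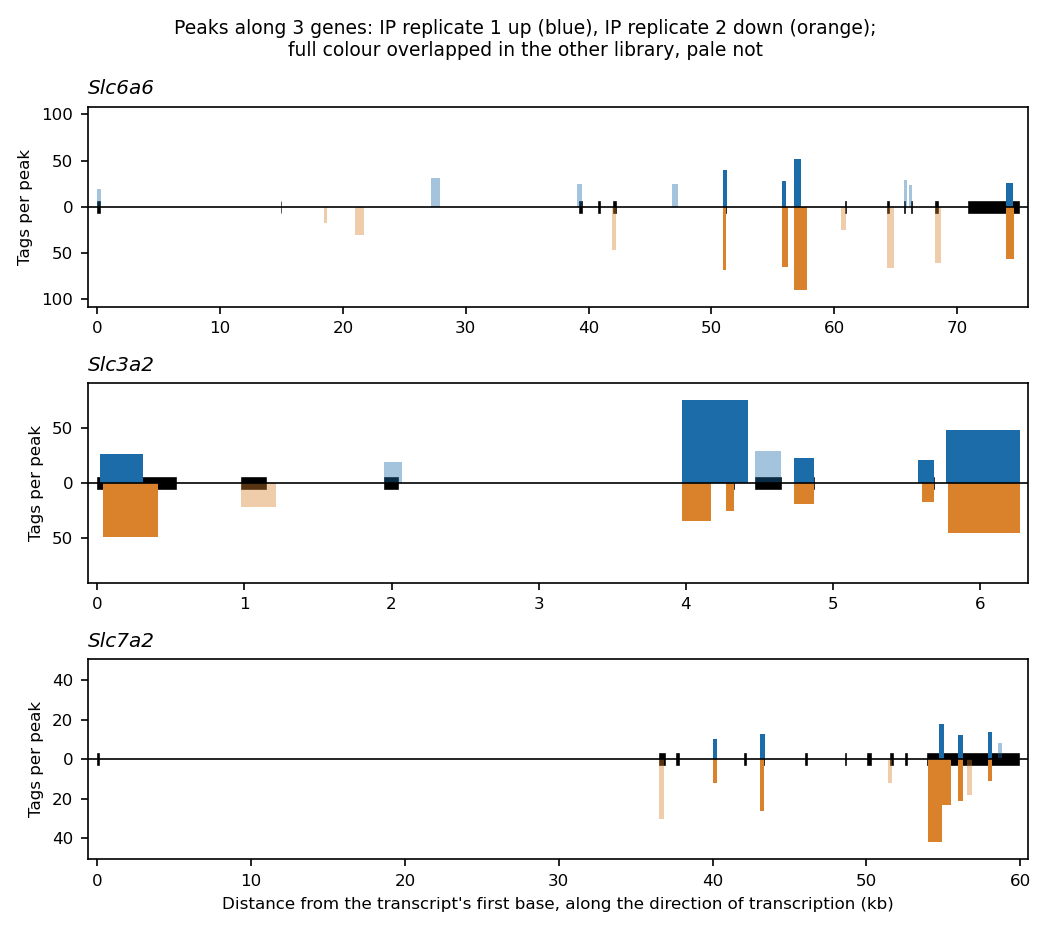
Peaks along Slc6a6, Slc3a2 and Slc7a2 by distance from the first base of the representative transcript (kb, horizontal), with exons in black, tags of IP replicate 1 drawn upwards and those of IP replicate 2 downwards. Full colour marks peaks overlapped in the other library and pale colour those that were not: strong pale peaks are seen in Slc6a6, where replicate 2 had peaks of 66 and 61 tags with no partner.

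Lysosomal amino acid and peptide carriers had strongest peaks below those of Slc6a6 and Slc3a2. Slc15a3, a peptide and histidine transporter of lysosomes, had 23 tags in replicate 1 and 32 in replicate 2, and Slc15a4, which acts with Toll-like receptors in endolysosomes, had 14 and 8. Slc15a3 had 3 shared positions and Slc15a4 had none. The summed tags of Slc15a3 were 39.7 and 52.0 per kb of mRNA, above the 9.48 and 24.7 of Slc7a2. The strongest Slc15a3 peak of replicate 2 lay in a region that the authors called intergenic although they named it for Slc15a3, at chr19:10858776-10859354. In GENCODE M21 it falls within the gene's span, in a retained-intron transcript and not in the representative one. Slc36a1, which carries small amino acids out of lysosomes, had 10 and 11 tags in its strongest peaks. Its shared position joined peaks of 10 and 8 tags that the authors placed in the 3′ UTR. The replicate 2 peak of 11 tags lay in coding sequence and had no partner.

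In Slc43a2 both libraries had strong peaks, but not at the same place. This gene, which encodes the neutral amino acid transporter LAT4, had 66 tags in the strongest peak of replicate 1 and 46 in that of replicate 2, both in the 3′ UTR. The replicate 1 peaks there spanned chr11:75572623-75573942, and the replicate 2 peaks spanned chr11:75576111-75577810. No Slc43a2 peak overlapped between the libraries. Slc1a5, the glutamine transporter ASCT2, had 2 peaks of 11 and 18 tags in replicate 2 and none in replicate 1.

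Sugar transporters had peaks in 11 of 34 genes, 5 of them in both libraries and 2 at a shared position. Slc37a2, known as abundant in macrophages, led with 40 tags in replicate 1 and 76 in replicate 2, in overlapping 3′ UTR peaks at chr9:37230789-37231551 and chr9:37230730-37231656. It had 18.2 and 25.4 tags per kb of mRNA. The glucose transporter Slc2a1 (GLUT1) was far weaker, with 7 and 13 tags in 1 shared position in coding sequence. Slc37a3 had 8 and 12 tags and no shared position. No gene of family 5, the sodium-glucose cotransporters and their relatives, had a peak among its 13 annotated members. All of the 4 genes of family 37 had one.

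Mitochondrial carriers, the 47 genes of family 25, had many genes with weak peaks. Peaks were present in 24 genes, or 51.1%, beside 31.8% of all protein-coding genes, but in both libraries in 7 of the 47, beside 17.1% of all protein-coding genes, and at a shared position in 2. The count fell to 12 genes with only peaks of 6 or more tags, and was 14 from replicate 1 alone and 17 from replicate 2 alone. The median strongest peak was 4.5 tags in replicate 1 and 6 in replicate 2, against 10 and 15 in the amino acid and peptide class. The phosphate carrier Slc25a3 was the highest of them, with 13 and 34 tags and 3 shared positions. Slc25a13, the aspartate-glutamate carrier citrin, had 8 and 12 tags at different places. Slc25a44, a carrier of branched-chain amino acids, had 8 and 7 tags at a shared position in the 5′ UTR. Others appeared in 1 library only. The ATP-Mg/phosphate carrier Slc25a25 had up to 10 tags in replicate 1 and its relative Slc25a24 up to 12 tags in replicate 2. The ADP/ATP carrier Slc25a5 had 7 tags in replicate 1.

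**Figure D3:**
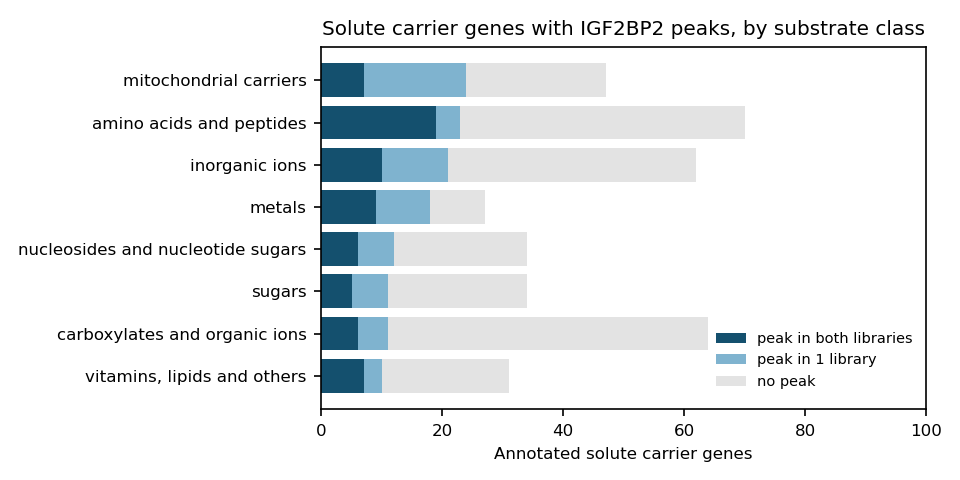
Number of annotated solute carrier genes in each of 8 substrate classes (horizontal), split into genes with a peak in both IP libraries, in 1 library and in neither. Amino acid and peptide carriers have 19 genes with peaks in both libraries, and mitochondrial carriers have 7 of the 24 that had a peak.

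Metal transporters had peaks in 18 of 27 genes, or 66.7%, beside 31.8% of all protein-coding genes. Peaks were in both libraries in 9 of the 27, beside 17.1% of all protein-coding genes, and at a shared position in 3. All of the 18 had a peak in replicate 2 and 9 of them in replicate 1, so the count of this class depends on replicate 2. The zinc importer Slc39a6 had 10 tags in replicate 1 and 22 in replicate 2, in overlapping 3′ UTR peaks. The zinc exporter Slc30a1 had 14 and 9 tags, in the 3′ UTR in replicate 1 and in coding sequence in replicate 2. Slc30a7, which loads zinc into the Golgi, had 8 and 8, and the zinc importer Slc39a1 had 12 tags in replicate 2 only. Neither Slc30a1 nor Slc30a7 had a shared position. Slc11a2, the iron transporter DMT1, had 7 peaks with 79 tags in replicate 2, the highest with 17, and none in replicate 1.

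Inorganic ion transporters had peaks in 21 of 62 genes, 10 in both libraries and 4 at a shared position. The chloride-bicarbonate exchanger Slc4a2 had 11 and 16 tags in its strongest peaks and 3 shared positions. Of these, 2 lay in the 5′ UTR, in the neighbouring exons 1 and 2. The potassium-chloride cotransporter Slc12a4 had 10 and 10 tags with no overlap, and its relative Slc12a7 had 8 tags in replicate 1 only. Several genes had many intronic peaks. Slc9a9, an endosomal sodium-proton exchanger, had 7 peaks in replicate 1 and 10 in replicate 2, of at most 8 and 9 tags, and 15 of the 17 were intronic. None of them overlapped. The sodium-calcium exchanger Slc8a1 had 8 peaks and 3 peaks, of at most 4 and 6 tags. Slc9a8, a sodium-proton exchanger of the Golgi and endosomes, had 9 tags in replicate 1 only, and the phosphate transporter Slc20a1 had 8 tags in replicate 2 only. Of the genes that match by symbol, Slc9a3r1 and Slc4a1ap encode a scaffold protein and an adaptor protein and not transporters. Both are counted among the 21 genes of this class, and Slc4a1ap also among the 10 in both libraries and the 4 with a shared position. Slc9a3r1 had 14 tags in replicate 2 only. Slc4a1ap had 6 and 9 tags in its strongest peaks and 3 shared positions.

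The carriers of vitamins, lipids and other substrates had peaks in 10 of 31 genes, of which 4 had a shared position. Slc23a2, the sodium-dependent vitamin C transporter, had 20 tags in its strongest peak in replicate 1 and 72 in replicate 2. The 72 tags fell in a single long peak of 1541 nt in the 3′ UTR, which overlapped a pair of replicate 1 peaks of 13 and 15 tags. The fatty acid transporter Slc27a1 had 23 and 41 tags and 5 overlaps, with its strongest peak in an intron in replicate 1 and in coding sequence in replicate 2. The choline transporter-like gene Slc44a2 had 13 and 11 tags, and Slc48a1, which moves heme out of phagolysosomes after red cells are digested, had 12 and 15. Both had a shared position in the 3′ UTR.

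Nucleoside and nucleotide-sugar transporters had peaks in 12 of 34 genes, with 1 shared position, in the equilibrative nucleoside transporter Slc29a1 (8 and 13 tags, 3′ UTR). The lysosomal nucleoside transporter Slc29a3 had 8 and 12 tags and the Golgi transporter Slc35b4 had 4 and 8, without overlap. Slc35b1, which carries ATP into the endoplasmic reticulum, had 6 tags in replicate 1 only, and Slc35f6 had 14 in replicate 2 only. Carriers of carboxylates and organic ions had peaks in 11 of 64 genes, or 17.2%, a lower share than any other class, beside 31.8% of all protein-coding genes. The lactate exporter Slc16a3 (MCT4) had 4 and 5 tags. The lysosomal sialic acid exporter Slc17a5 had 6 and 9, and Slc10a7 had 8 and 8. No shared position was found in these 3 genes.

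The only shared position in the class of carboxylates and organic ions was named for Slc22a14, and it also lay within another gene. Slc22a14 had 4 peaks in replicate 1 and 14 in replicate 2, all called intronic by the authors. None touched its own exons in the reference annotation. Of the 18 peaks, 13 lay within Oxsr1, a kinase gene on the same strand, and 8 of these touched Oxsr1 exons. The other 5 lay within Myd88, the adaptor gene of Toll-like receptors, and all of these touched Myd88 exons. Neither Oxsr1 nor Myd88 had a peak under its own name in the lists. The reference span of Slc22a14 also holds all of these peaks. Its strongest peaks, of 7 and 10 tags, both lay wholly within Oxsr1 exons, and the shared position lay within exon 1 of Myd88. They are counted for Slc22a14 by the authors' identifier only, and are not shown to come from its RNA. Without peaks that lay in another protein-coding gene on the same strand, 128 genes remained with a peak in either library, 67 in both and 26 with a shared position.

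Peaks were set beside transcript regions as the authors annotated them, with the region that covered most of a peak. In the 3′ UTR lay 20% of solute carrier peaks (14.6 to 26.4) in replicate 1, against 12.4% (11.8 to 12.9) of peaks of other protein-coding genes, and 22.5% (18 to 27.6) in replicate 2, against 11.6% (11.1 to 12.1). In coding sequence lay 35.3% (28.5 to 42.5) in replicate 1, against 47.4%, and 38.2% (32.8 to 43.9) in replicate 2, against 45%. Introns held 37.4% and 36.6% of the solute carrier peaks, against 36.9% and 40.1% of the others. In both libraries the 3′ UTR share of solute carrier peaks was above that of other peaks and the coding share below it. The intervals of the 3′ UTR shares over peaks do not overlap in either library, but counted by gene, as given below, the replicate 1 interval holds the share of other genes. Those of the coding shares are apart in replicate 1, but nearly meet in replicate 2, at 43.9 for solute carrier genes and 44.3 for other genes. The replicate 2 coding share of solute carrier peaks was 39.8% with only peaks of 6 or more tags and 40.1% without peaks that lay in another protein-coding gene, so this difference is not firm. Peaks of 1 gene are not independent, which the intervals leave out, and neither the 3′ UTR nor the coding difference was tested.

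**Figure D4:**
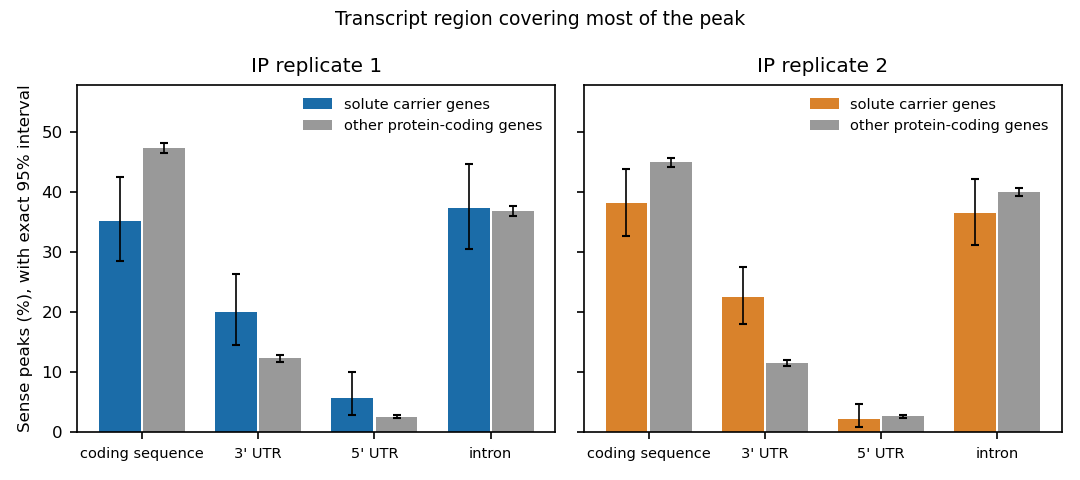
Share of sense peaks (%, vertical, from 0) in coding sequence, 3′ UTR, 5′ UTR and introns for solute carrier genes, coloured, and other protein-coding genes, grey, in IP replicate 1 on the left and IP replicate 2 on the right. Bars carry exact binomial 95% intervals: the 3′ UTR share is 20% and 22.5% for solute carrier genes, against 12.4% and 11.6% for other genes.

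A few genes with several 3′ UTR peaks contributed to this share. Without Slc7a2, Slc38a1 and Slc23a2 the 3′ UTR share in replicate 1 was 16%, and without Slc7a1, Slc38a1 and Slc7a2 it was 19.4% in replicate 2. Counted by gene, 27 of 90 solute carrier genes in replicate 1 had a 3′ UTR peak, or 30.0% (20.8 to 40.6), against 25.5% of other genes with a peak. In replicate 2 the count was 46 of 109, or 42.2% (32.8 to 52.0), against 27.3%. The replicate 1 interval holds the share of the other genes and the replicate 2 interval does not. The median 3′ UTR of the solute carrier genes was 1545.5 nt in replicate 1 and 1515 nt in replicate 2, or 46.9% and 46.5% of the mRNA. That of other genes with a peak was 1223 and 1179 nt, or 37.6% and 37.7%. The part of 3′ UTR length in the difference was not tested. By the reference annotation, 32.3% of exonic summits of solute carrier peaks in replicate 1 fell in the last exon, against 21.7% for other genes, and 35.2% in replicate 2, against 20.7%.

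Most peaks had no partner in the other library. In replicate 1, 33.2% of solute carrier peaks (26.5 to 40.3) were overlapped by a replicate 2 peak, beside 37% over all protein-coding genes. In replicate 2, 20.6% (16.2 to 25.6) were overlapped, beside 25.4%. Among peaks of 3 to 5 tags the share was 7.14% in replicate 1 and 6.67% in replicate 2, among peaks of 10 to 19 tags 64.3% and 27.6%, and among peaks of 20 or more tags 54.2% (32.8 to 74.4) and 58.5% (42.1 to 73.7). For other protein-coding genes, the share was 10.8% and 5.01% among peaks of 3 to 5 tags, 55.1% and 30.7% among those of 10 to 19 tags, and 73.8% and 58.2% among those of 20 or more. Even strong solute carrier peaks were thus often absent from the other list, as seen in Slc6a6 and Slc43a2. By region, 3′ UTR peaks were overlapped in 52.6% of cases (35.8 to 69.0) in replicate 1 and 29% (18.7 to 41.2) in replicate 2, against 39.5% and 29.9% of 3′ UTR peaks of other genes. Intronic peaks were overlapped in 15.5% (8.0 to 26) and 8.93% (4.36 to 15.8), against 24.2% and 17.4% of intronic peaks of other genes. Intronic solute carrier peaks had a median of 6 and 6.5 tags, against 7 and 9 for other genes, and the part of these lower tags in the overlap was not tested.

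The 27 genes with a shared position gave 65 overlapping pairs of peaks. Tags were higher in replicate 2 in 39 pairs, higher in replicate 1 in 20 and equal in 6. The median log2 ratio of replicate 2 over replicate 1 was 0.36, beside 0.49 over 5020 pairs of other protein-coding genes. The tags of all peaks were 1.71 times as many in replicate 2, and those of solute carrier peaks 1.80 times. Across the 65 pairs, Spearman's rho between the libraries was 0.744 and Pearson's r, on log2 tags, was 0.724, beside 0.746 and 0.779 for other genes. These are across peaks of 2 libraries, several from 1 gene, and only pairs above the calling limit in both enter, so they are a description. Summits lay a median of 30 nt apart. In 5 pairs both edges coincided to the base and in 21 pairs 1 edge did, and the overlap was exactly 1 annotated exon in 15 pairs.

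**Figure D5:**
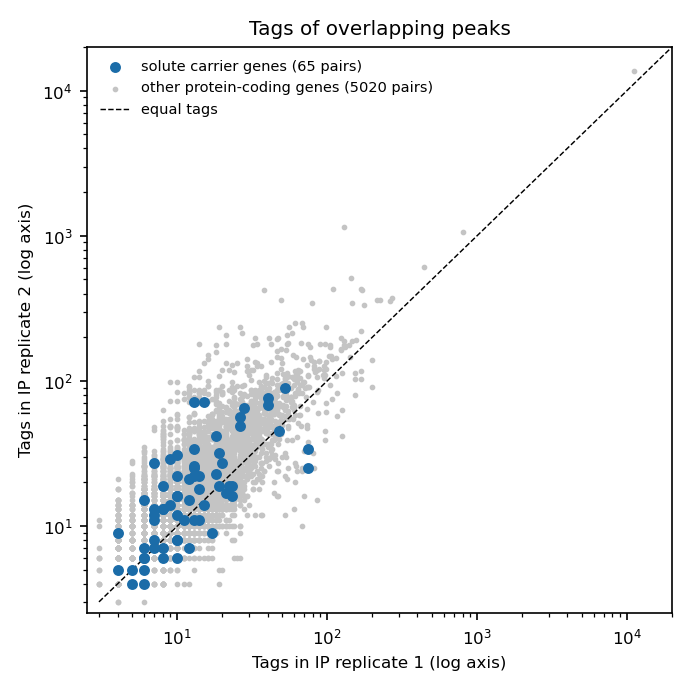
Tags of overlapping peaks in IP replicate 1 (horizontal) and IP replicate 2 (vertical), both on log axes, for the 65 pairs of solute carrier genes in blue and the 5020 pairs of other protein-coding genes in grey, with a dashed line of equal tags. The solute carrier pairs lie within the cloud of the others, and 39 of them lie above the line.

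Edges of peaks followed annotated exons in many cases. At least 1 edge lay on an exon edge in 35.3% of solute carrier peaks in replicate 1 and 40.2% in replicate 2, against 43.1% and 42.5% for other protein-coding genes. Peaks that crossed from exon to intron were 20% and 17.3% of the solute carrier peaks, against 19.6% and 22.7%. Whether reads spliced across 2 exons were counted in the peaks of both exons was not tested. Peaks of neighbouring exons may therefore not be separate sites, and summed tags may count a read more than once. In Slc4a2 the shared peaks of exons 1 and 2 had 7 and 7 tags in replicate 1, and 8 and 12 in replicate 2.

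The GGAC core was sought on the sense strand in the peaks that lay within 1 exon of the representative transcript, 92 in replicate 1 and 162 in replicate 2. It was present in 58.7% (47.9 to 68.9) in replicate 1, against 51.7% for other protein-coding genes, and in 56.8% (48.8 to 64.5) in replicate 2, against 51.5%. The solute carrier peaks were also longer, with medians of 167 and 176.5 nt against 145 and 150 nt. Per kb of peak, GGAC occurred 4.84 and 4.74 times in solute carrier genes, against 4.84 and 4.71 times in other genes. Per length, then, GGAC was about as frequent as in other peaks. DRACH, which GGAC followed by A, C or T fulfils, was present in 91.3% and 86.4%, against 90.8% and 91.0%. Per kb of peak it occurred 18 and 18.2 times in solute carrier genes, against 19.6 and 19.8 times in other genes. A match is a description of the letters and not a methylated site.

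The mRNAs of the 130 genes had a median of 3304 nt, against 2846 nt for the 239 solute carrier genes without a peak. For other protein-coding genes the medians were 3353.5 nt with a peak and 2157 nt without. Genes with peaks in 1 library only had a median of 2733 nt, those with peaks in both but no overlap 4131.5 nt, and those with a shared position 3456 nt. The part of mRNA length in which genes had a peak was not tested.

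Other transporter families, listed by symbol, were set beside the solute carriers. ABC transporters, the ATP-driven pumps, had peaks in 19 of 50 genes, 12 of them in both libraries. The Mfsd genes, further members of the major facilitator superfamily, had peaks in 10 of 23 genes, or 43.5%, 6 in both. Mfsd12, which imports cysteine into lysosomes and melanosomes, had peaks of 177 and 187 tags, above the strongest peak of any solute carrier gene. The organic anion transporters of the Slco family had peaks in 3 of 14 genes, or 21.4%, and none in both. Ion channels had peaks in 30 of 161 genes, or 18.6%. The share of the solute carrier genes, 35.2%, was below those of ABC transporters and Mfsd genes and above those of Slco genes and ion channels. Over all protein-coding genes it was 31.8%, and none of these differences was tested.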

How the data were processed

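Peak lists of 2 IGF2BP2 immunoprecipitation libraries from BMDMs were analysed. The 2 input libraries were not analysed here. The submitters' processing notes list bcl2fastq, TopHat2 and the genome build GRCm38. The program that called the peaks, its cut-off and its use of input were not given in the sources used here. For every peak, per the file headers, the authors deposited an unnormalized tag count and a maximum height, a coverage signal of the tags stacked at 1 position. Whether replicates were pooled before calling is not stated, but each library has its own list.

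Deposited starts and summits were found to count from 0, since start + 1 fell on an exon start for 9669 of 38081 peaks and the start as given for 69. They were moved by 1, and coordinates are 1-based with both ends included. Genes, regions, lengths and sequences came from GENCODE M21 on GRCm38, with 1 representative transcript for each gene (APPRIS principal, then CCDS, support level and coding length). Peaks were joined to genes by the authors' identifier without its version. Overlap was at least 1 base on the same strand, and the code was tested on simulated peaks. Motifs were sought in peaks within 1 exon. Python 3.11.15, numpy 2.4.6, pandas 2.3.3, scipy 1.17.1 and matplotlib 3.10.9 were used.

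The genes, classes and lists were chosen with earlier results of these data known. Classes follow the family number. Genes named are the 20 with a shared position whose strongest peaks have the highest mean rank over the libraries, the first 3 of each class, the 5 highest found in 1 library only, for each library, and a preset list of genes. Some genes that this rule or the lists name are not reported here. Others, among them Slc7a1, Slc7a6, Slc7a7, Slc8a1, Slc9a9 and Mfsd12, were chosen after their values were seen. No test was run, because the rule used these values. Intervals are exact binomial 95% intervals. Alternatives were a higher tag minimum, equal numbers of peaks, a stricter overlap, antisense peaks kept, intronic peaks left out, the reference annotation, shares of tags, maximum height, summed tags, extended windows and each library alone.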

Additional observations from a re-analysis of the deposited data

Results flagged for a closer look

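Peaks marked antisense were outside the rule, and no background from the input libraries, which were not analysed here, stands beside them. At solute carrier genes there were 12 in replicate 1, with 48 tags in 8 genes, and 27 in replicate 2, with 143 tags in 15 genes. They were 5.94% and 8.11% of the peaks named for solute carrier genes, against 4.28% and 4.40% for other protein-coding genes. Slc7a15 had 3 and 7 of them, of at most 5 tags, and Slc25a18 had 2 and 4, of up to 16 tags in replicate 2. Slc15a3 had 1 in each library, with 4 and 17 tags at overlapping places. Antisense peaks also overlapped between the libraries in Slc7a15, with 5 and 5 tags, and in Slc25a18, with 4 and 10 tags. Slc7a15 and Slc25a18 had no sense peak.

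A further 10 peaks lay on exons of solute carrier mRNAs but were named for another gene or for none. Of these, 4 lay on Slc39a7, which encodes a zinc transporter of the endoplasmic reticulum, with 41 and 12 tags in replicate 1 and 21 and 13 in replicate 2. The replicate 1 peak of 12 tags and the replicate 2 peak of 21 tags overlapped. They were all named for Gm20427, so Slc39a7 is counted above among the genes without a peak, also in the metal class. The peak of 41 tags was above the 22 tags of Slc39a6, the highest counted for that class. Another 3, called intergenic, lay on Slc37a2, with 4 and 8 tags in replicate 1 and 11 in replicate 2. Those of 8 and 11 tags overlapped.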

How the results depend on the processing

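With only peaks of 6 or more tags, 82 genes had a peak, and the counts fell to 4 for sugars, 12 for mitochondrial carriers, 5 for carboxylates and organic ions, 7 for nucleosides and nucleotide sugars, and 5 for vitamins, lipids and others. The overlapped share in replicate 1 was then 42.5%. With overlap of at least 50% of both peaks it was 21.6% in replicate 1 and 13.4% in replicate 2, and with equal numbers of the strongest peaks it was 27.8% in replicate 2. Without intronic peaks, 42 genes had peaks in both libraries. Windows extended by 50 nt held GGAC in 69.6% and 73.5% of cases and DRACH in 98.9% and 100%. From 1 library alone, mitochondrial carriers numbered 14 to 17 and metal transporters 9 to 18. The stricter overlap, the higher tag minimum and the omission of intronic peaks can only lower a count of genes or pairs, and extension can only raise a motif share; the cause of the higher overlapped shares was not tested. The other settings left values within 1.5 times for counts or within the interval for shares, among them the deposited start read as counted from 1 (33.2% and 20.6%) and leaving out peaks in other genes, both added after seeing the data. Of the 20 highest genes, 19 were kept by maximum height and 18 by summed tags. No paired analysis was possible because all values come from the 2 immunoprecipitation libraries, which are 1 group, and from no test. With no input and no library size, low tags limit every value: a gene without a peak is not shown to be unbound.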
